A study of Mus musculus with 10 samples.

Results

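The cathepsin protease genes were followed through sorted hippocampal microglia of 3xTg AD mice. The 10 genes, *Ctsa*, *Ctsb*, *Ctsc*, *Ctsd*, *Ctsf*, *Ctsh*, *Ctsl*, *Ctso*, *Ctss* and *Ctsz*, were taken by symbol from the 55453 genes of the count table, and all 10 were among the 14481 genes that passed a filter on low counts. The mice were females older than 15 months that carry mutant human genes, APP and MAPT among them, placed under the neuronal Thy1 promoter by the study's methods, and develop amyloid and tau pathology with age, a genotype that both groups share. One group received weekly injections of 0.1 mg glatiramer acetate (GA, a random amino acid copolymer used in multiple sclerosis) for about 8 weeks, and the other received PBS, with 5 libraries of bulk RNA per treatment. Microglia were sorted as CD45int CD11b+ cells. The number of animals behind a library is not stated, so p-values measure only the spread between these libraries, and in bulk RNA fewer cells of a type and less RNA per cell cannot be told apart. All 5 PBS titles start with 388, while GA titles start with 394 (394_1 and 394_2) or 400 (400_1, 400_2 and 400_3), so that the prefix, whose meaning is not given, and the treatment cannot be told apart.

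Cathepsins are proteases of the lysosome and endosome. They are made as inactive precursors, carried to the lysosome largely by mannose 6-phosphate receptors and cleaved there into the mature enzyme. Cystatins and stefins hold those of the cysteine type in check. In microglia they degrade phagocytosed material, including amyloid, and cathepsin S trims the invariant chain during antigen presentation by MHC class II. Of the 10 genes, 8 encode cysteine proteases (cathepsins B, C, F, H, L, O, S and Z), *Ctsd* encodes the aspartic protease cathepsin D, and *Ctsa* encodes the serine carboxypeptidase cathepsin A, which also holds β-galactosidase and neuraminidase together in a complex.

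The genes lie on 7 chromosomes (GRCm38, positions of GENCODE M21). *Ctss* (ENSMUSG00000038642.10) lies at chr3:95526786-95556403 on the plus strand, *Ctsd* (ENSMUSG00000007891.16) at chr7:142375911-142388038 on the minus strand, *Ctsb* (ENSMUSG00000021939.8) at chr14:63122462-63145923 on the plus strand, *Ctsl* (ENSMUSG00000021477.9) at chr13:64359337-64370890 on the minus strand and *Ctsf* (ENSMUSG00000083282.3) at chr19:4855130-4860918 on the plus strand. On the plus strand are also *Ctsa* (ENSMUSG00000017760.16) at chr2:164832873-164841032, *Ctsc* (ENSMUSG00000030560.17) at chr7:88278085-88310888, *Ctsh* (ENSMUSG00000032359.14) at chr9:90054152-90076089 and *Ctso* (ENSMUSG00000028015.3) at chr3:81932601-81956725, and *Ctsz* (ENSMUSG00000016256.10) lies on the minus strand at chr2:174427493-174439039. The library kit does not mark strand, and *Ctsb* shares 774 exon bases (12.8% of its own) with the antisense gene *Fdft1*, which was counted 224 to 421 times per library. *Ctsl* shares 26.8% of its exon bases with *Gm47123*, and *Ctsd* 34.4% with *Gm49369*, and both of those genes were at 0 counts in every library. *Ctsa* shares 17.4% of its exon bases with the antisense genes *Pltp* (119 to 499 counts per library) and *Neurl2* (66 to 128 counts). How reads of a shared stretch were counted is not given in the sources used here and was not tested, so the levels of *Ctsa*, *Ctsb*, *Ctsd* and *Ctsl* are uncertain to that extent.

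Promoter sequences from RefSeq (GRCm38.p6, 250 bases before to 50 bases after a start site) were matched for 8 of the 10 genes, in 9 windows since *Ctsa* has a pair of start sites. The letters of 3 motifs were searched on both strands. CACGTG, the core of the sites bound by the lysosomal regulator TFEB and other basic helix-loop-helix factors, was present in 4 of the 9 windows and in 7.15% of the 32851 windows of all genes. GAGGAAGT, the purine-rich letters of sites for the myeloid factor PU.1, was present in 2 of the 9 and in 3.20% of all windows, and TGANTCA, the AP-1 letters, in 0 of the 9 and in 7.81% of all. The following windows are shown for genes that moved together across libraries (*Ctsa*, *Ctsd*, *Ctss*) and for *Ctsf*, which did not move with them. A link between a motif and joint movement was not tested. Capitals mark a motif, and each window is written 5′ to 3′ on the strand of its gene. The *Ctsa* window shown, plus strand, is chr2:164833523-164833822 and holds CACGTG in 2 places, the first starting 12 bases before the start site. The window of the other *Ctsa* start site, chr2:164832622-164832921, holds none of the 3 motifs. The *Ctsd* window, minus strand, is chr7:142387778-142388077 and holds it in 2 places. The *Ctsf* window, plus strand, is chr19:4854915-4855214 and holds it once, 79 bases before the start site. The *Ctss* window, plus strand, is chr3:95526536-95526835 and holds GAGGAAGT once, on the opposite strand.
Ctsa: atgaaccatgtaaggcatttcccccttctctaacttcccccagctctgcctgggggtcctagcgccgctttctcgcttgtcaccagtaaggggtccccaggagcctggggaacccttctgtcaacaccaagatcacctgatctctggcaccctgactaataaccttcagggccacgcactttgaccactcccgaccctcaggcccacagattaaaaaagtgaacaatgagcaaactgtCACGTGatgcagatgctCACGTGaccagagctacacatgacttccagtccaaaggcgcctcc
Ctsd: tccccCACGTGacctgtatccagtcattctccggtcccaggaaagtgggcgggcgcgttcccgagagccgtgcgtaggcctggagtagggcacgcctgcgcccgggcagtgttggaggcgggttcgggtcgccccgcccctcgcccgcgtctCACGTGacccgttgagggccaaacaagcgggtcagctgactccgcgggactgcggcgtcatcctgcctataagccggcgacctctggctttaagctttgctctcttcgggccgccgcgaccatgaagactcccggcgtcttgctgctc
Ctsf: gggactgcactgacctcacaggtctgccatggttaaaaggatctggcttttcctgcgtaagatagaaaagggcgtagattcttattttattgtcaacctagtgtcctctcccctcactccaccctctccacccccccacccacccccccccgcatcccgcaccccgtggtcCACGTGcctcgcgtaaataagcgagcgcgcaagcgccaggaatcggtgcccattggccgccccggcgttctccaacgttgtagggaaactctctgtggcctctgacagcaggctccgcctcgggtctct
Ctss: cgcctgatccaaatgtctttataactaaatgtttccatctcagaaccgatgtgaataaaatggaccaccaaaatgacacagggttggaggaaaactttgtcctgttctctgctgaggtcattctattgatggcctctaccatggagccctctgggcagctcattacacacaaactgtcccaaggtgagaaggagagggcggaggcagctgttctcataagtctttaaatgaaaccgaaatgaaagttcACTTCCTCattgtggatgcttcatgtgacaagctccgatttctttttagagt
The *Ctsl* window also holds CACGTG, and the *Ctsc* window also holds GAGGAAGT. A match describes letters in a window and was not linked to binding in these cells.

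Microglia transcribed the cathepsins at levels that spanned 153-fold per unit of length. Levels between genes were compared only as RPKM, the normalised count per 1000 bases of annotated exon, shared bases included, and per 1000000 counts. *Ctss*, the elastin- and invariant chain-cleaving protease typical of myeloid cells, had 6896 ± 650 RPKM (SD, n = 10 libraries), and *Ctsd* had 4738 ± 470 RPKM (SD, n = 10). *Ctsz*, an exopeptidase that removes single residues from the carboxyl end, had 1668 ± 161 RPKM, and these first 3 genes made up 84.8% to 86.7% of the summed RPKM of the 10 genes in every library. *Ctsb*, an endopeptidase that also removes dipeptides, had 964 ± 97 RPKM, and *Ctsa* had 579 ± 31 RPKM. Lower in the order were the aminopeptidase gene *Ctsh* with 245 ± 17 RPKM and *Ctsc*, whose product activates granule serine proteases, with 214 ± 15 RPKM. *Ctsl*, encoding a strong endopeptidase, had 119 ± 14 RPKM, *Ctsf* 110 ± 3.3 RPKM, and *Ctso*, the least studied of these enzymes, closed the order with 45.01 ± 5.35 RPKM. Neighbours in the order were compared within libraries by a two-sided exact sign-flip permutation test (1024 arrangements), and 8 of the 9 steps passed at an adjusted p of 0.0022, each with the first gene higher in 10 of 10 libraries. The order came from these same libraries, so the p-values measure only how steadily a step recurred among them at the length used. The step from *Ctsl* to *Ctsf* did not pass (ratio 1.07, higher in 7 of 10 libraries, adjusted p = 0.145 by the same exact test). The order of *Ctss* and *Ctsd* and that of *Ctsl* and *Ctsf* depended on the length used. With the bases shared with other genes left out of the length, a setting added after seeing the values, *Ctsd* had 7220 ± 716 RPKM and stood 1.05-fold above *Ctss* (higher in 8 of 10 libraries, exact adjusted p = 0.0176), and *Ctsl* stood 1.46-fold above *Ctsf*. With the longest transcript as the length, *Ctss* stood 1.32-fold above *Ctsd* and *Ctsf* 2.14-fold above *Ctsl*.

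The comparison of GA with PBS asked whether the treatment moved the cathepsin genes, and no member passed the test. With edgeR's quasi-likelihood test 0 of the 10 genes had an adjusted p under 0.05, against 0% of all genes tested (0 of 14481), and 0 of the 10 had an unadjusted p under 0.05, against 5.75% of all genes. DESeq2 called 0 of the 10 (2 of 27495 genes with a p-value) and limma-voom 0 of the 10 (0 of 14481 genes). The log2 fold changes of 8 genes were above 0 and those of 2 below (5 and 5 without PBS library 388_1), with a median of 0.04 over the 10 and 0.0002 over all genes. Of all genes tested, 7250 were above 0 and 7231 below. Over the 95% intervals of the 10 genes, the lowest bound was a log2 fold change of -0.17 (*Ctss*, 11.4% lower) and the highest 0.30 (*Ctsl*, 23.4% higher). Values by library are CPM, counts per 1000000 scaled by edgeR's TMM factors, and PBS libraries are given in the order 388_1 to 388_5 and GA libraries in the order 394_1, 394_2, 400_1, 400_2, 400_3.

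**Figure D1:**
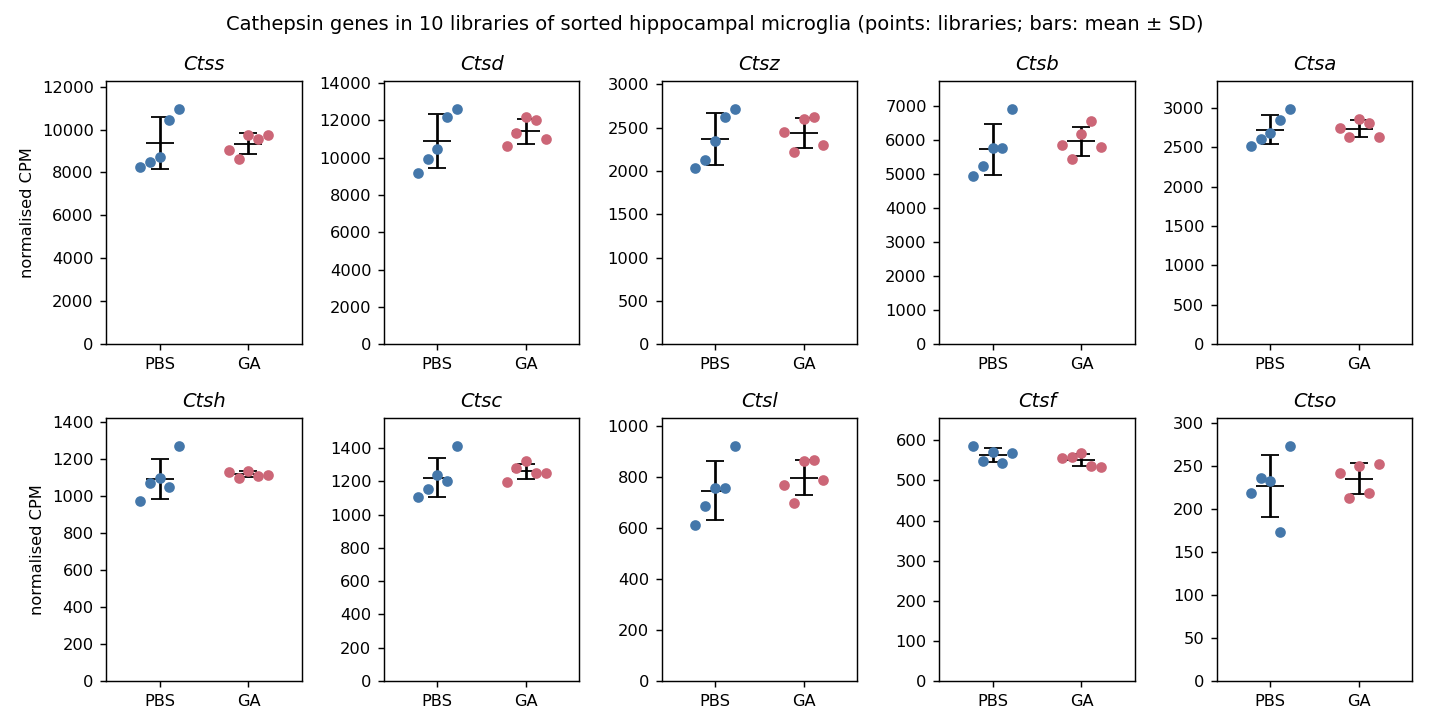
Normalised CPM of each cathepsin gene (vertical axis, from 0) in the 5 PBS and 5 GA libraries, in the order of the per-length levels. Points are libraries and bars the mean ± SD. The PBS points spread more widely than the GA points in all 10 panels, and the means lie close together.

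Among the endopeptidases, *Ctsb* had 4920.2, 5237, 5756, 5769 and 6892 CPM in the PBS libraries and 5849, 5423, 6151, 6544 and 5798 CPM in the GA libraries. Every GA value lay between the lowest PBS library, 388_1, and the highest, 388_5, and the log2 fold change was 0.06 (standard error 0.08, edgeR adjusted p = 0.953). *Ctsl* had 611, 688, 756, 757 and 922 CPM with PBS and 769.6, 699.5, 862, 867 and 789 CPM with GA. Again 388_1 was lowest and 388_5 highest, with all GA libraries between them, and its log2 fold change of 0.10 (standard error 0.10, edgeR adjusted p = 0.940) was the largest of the 10. *Ctss* had 8267, 8507, 8737, 10447 and 10947 CPM with PBS and 9044, 8620.4, 9741, 9577 and 9757 CPM with GA. PBS libraries 388_4 and 388_5 stood above every GA library while 388_1 and 388_2 stood below every one, and the means of 9381 ± 1226 and 9348 ± 499 CPM (SD, n = 5 each) were nearly equal (log2 fold change -0.01, standard error 0.08, edgeR adjusted p = 0.997).

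*Ctsf*, which can degrade the invariant chain in macrophages, had 586, 549, 569.9, 544 and 567 CPM with PBS and 557, 559, 568, 535 and 533 CPM with GA. It was the only gene of the 10 with GA libraries outside the PBS range: 400_2 and 400_3 lay just under the lowest PBS library, and here 388_1 was the highest of the PBS group. The difference was small beside the spread (log2 fold change -0.03, standard error 0.05, edgeR adjusted p = 0.956, two-sided exact permutation p = 0.230). *Ctso* had 218, 236, 232, 173 and 273 CPM with PBS and 242, 213, 249.7, 218 and 251.6 CPM with GA. One PBS library, 388_4, lay lower than the rest, and this gene had the widest ratio of highest to lowest library, 1.58, while its log2 fold change was 0.05 (standard error 0.10, edgeR adjusted p = 0.970).

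Among the exopeptidases, *Ctsh* had 972, 1068, 1094, 1048 and 1269.7 CPM with PBS and 1131, 1095, 1136, 1108 and 1111 CPM with GA. The GA libraries ran from 1095 to 1136 CPM, while the PBS libraries ran from 388_1, below all of them, to 388_5, above all of them (log2 fold change 0.03, standard error 0.07, edgeR adjusted p = 0.970). *Ctsc* had 1108 to 1412 CPM with PBS and 1194 to 1321 CPM with GA, with medians of 1199 and 1252 CPM (log2 fold change 0.04, standard error 0.07, edgeR adjusted p = 0.955). For *Ctsz* the ranges were 2038 to 2712 CPM with PBS and 2223 to 2623 CPM with GA (log2 fold change 0.04, standard error 0.08, edgeR adjusted p = 0.970). In both genes the PBS group held the lowest and the highest library.

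The aspartic and serine enzymes showed the same arrangement. *Ctsd*, the main aspartic protease of the lysosome, had 9197, 9935, 10465, 12171 and 12587 CPM with PBS and 10598, 11307, 12158, 12012 and 10969 CPM with GA. Libraries 388_4 and 388_5 exceeded every GA library and the other 3 PBS libraries lay below every one, and the log2 fold change was 0.07 (standard error 0.08, edgeR adjusted p = 0.948). *Ctsa* had 2515 to 2980 CPM with PBS and 2625 to 2860 CPM with GA, and its log2 fold change was 0.01 (standard error 0.06, edgeR adjusted p = 0.994). Tested one gene at a time over all arrangements of 5 and 5 libraries, two-sided exact permutation p-values ran from 0.230 for *Ctsf* to 0.976 for *Ctss*, where the smallest possible p is 0.00794.

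**Figure D2:**
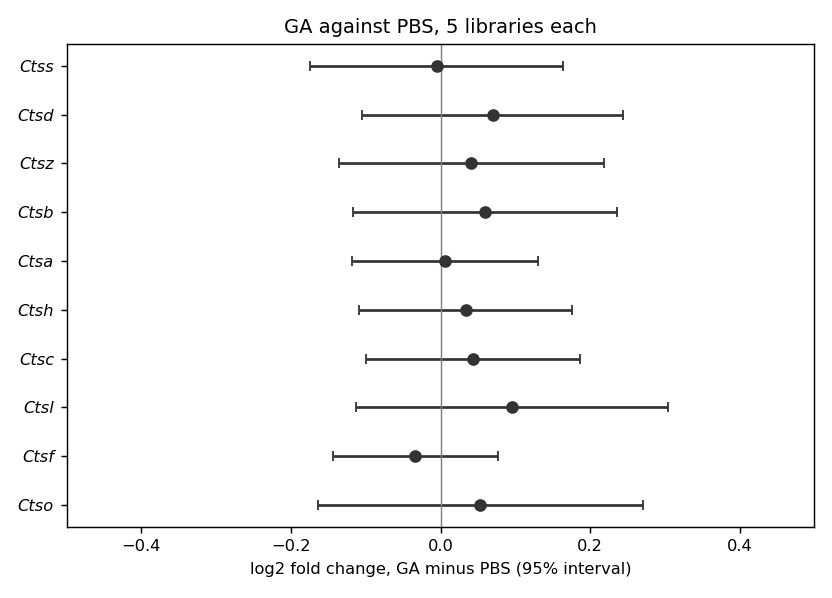
Log2 fold change of GA over PBS (horizontal axis) for each cathepsin gene with its 95% interval from edgeR's quasi-likelihood fit. All 10 intervals cover 0, and the bound farthest from 0 is 0.30, for *Ctsl*.

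Single PBS libraries weighed on these comparisons in both directions. Without 388_1, the log2 fold change was 0.031 for *Ctsl*, 0.0099 for *Ctsb*, 0.015 for *Ctsd* and 0.011 for *Ctsc*. Without 388_5, edgeR gave *Ctsl* (unadjusted p = 0.0345) and *Ctsb* (unadjusted p = 0.0417) log2 fold changes of 0.19 and 0.14 with adjusted p-values of 0.627 and 0.632, in a fit where 7.72% of all genes had an unadjusted p under 0.05, and the exact permutation test gave p = 0.00794 for *Ctsh*, with 5 of 5 GA libraries above the remaining PBS libraries, and p = 0.0476 for *Ctsc*, with 4 of 5 above. The value of 388_5 was the highest of all 10 libraries in 9 of the 10 genes. No other single exclusion gave a cathepsin gene a p under 0.05 by either test.

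The PBS libraries spread more widely than the GA libraries in these genes, a difference that was not tested. All 5 GA libraries lay within the PBS range for 9 of the 10 cathepsin genes, which holds for 35.4% of all genes tested, and 0 of the 10 had groups that did not overlap, against 0.891% of all genes. The coefficient of variation was larger among PBS than among GA libraries in 10 of the 10 genes, with 3.01% to 16.03% for PBS and 1.53% to 8.75% for GA. The same was true of 68.6% of all genes, so a wider PBS spread was the common case in these data. Without 388_1 and 388_5, an exclusion chosen after seeing the values, the PBS spread was larger in 6 of the 10 genes and in 61.3% of all genes. These 2 libraries held most of the extremes: 388_1 was lowest in 8 genes and 388_5 highest in 9. The cathepsins together took 3.08% of all counts in 388_1 (95% Wilson interval 3.08% to 3.09%) and 3.87% in 388_5 (3.86% to 3.87%), intervals that cover counting error only, and 3.44% to 3.74% in the GA libraries. Mean shares were 3.48% ± 0.33 (SD, n = 5) with PBS and 3.58% ± 0.14 (SD, n = 5) with GA.

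Most cathepsin genes moved together from library to library. The log2 CPM of each pair was correlated over the 10 libraries, with permutation p-values (100000 resamples) adjusted over the 45 pairs, and 27 pairs passed at 0.05 by Pearson's r and 20 by Spearman's rho. All 27 lay among the 28 pairs of the 8 genes other than *Ctsf* and *Ctso*, where r ran from 0.66 to 0.98 with a median of 0.85. These 8 genes were grouped by the same r values. The share of passing pairs among other genes was not computed, so the counts of pairs have no background to be read against. *Ctsb* and *Ctsl* had the highest r, 0.98, and *Ctsa* and *Ctsz* followed with 0.97. Subtracting each treatment's mean left a median of 0.85 over these 28 pairs, a value in which the wider PBS group weighs more, and correlations over the 5 libraries of a single treatment are not given here. *Ctsf* passed with 0 of its 9 partners (r from -0.36 to 0.19), and *Ctso* with 0 of 9 (r from 0.00 to 0.65, highest with *Ctsh*), although by Spearman's rho 1 of the 20 pairs was that of *Ctso* with *Ctsh* (rho 0.79).

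**Figure D3:**
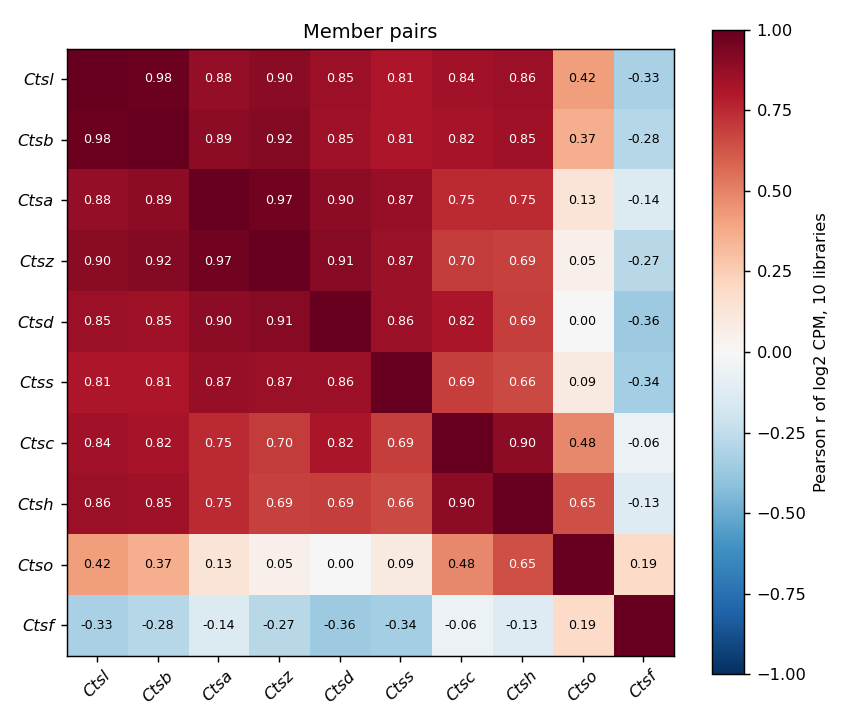
Pearson r of log2 CPM over the 10 libraries for the 45 pairs of cathepsin genes, printed in each cell, with red for positive and blue for negative values. A block of 8 genes has r between 0.66 and 0.98, while the rows of *Ctso* and *Ctsf* reach 0.65 and 0.19 at most.

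**Figure D4:**
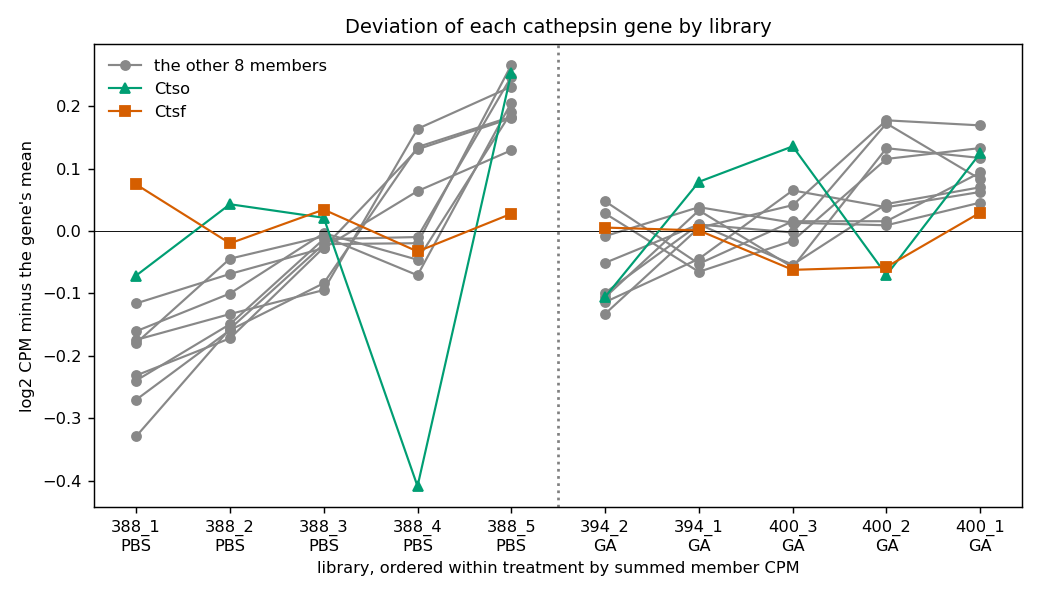
Log2 CPM of each gene minus its mean over 10 libraries (vertical axis), with libraries ordered within treatment by their summed cathepsin CPM. The 8 grey genes are lowest in 388_1 and highest in 388_5 of the PBS group, *Ctsf* is highest there in 388_1, and *Ctso* drops in 388_4.

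The correlations leaned on the libraries at the ends. Leaving out 388_1 and 388_5, which lie farthest from the median in most pairs, left 2 of the 45 pairs past the threshold over 8 libraries; the median r of the 28 pairs was then 0.61 and 27 of the 28 stayed positive. Without 388_1 alone 14 pairs passed, and without 388_5 alone 18. From 388_1 to 388_5 the CPM differed 1.51-fold for *Ctsl*, 1.40-fold for *Ctsb*, 1.37-fold for *Ctsd*, 1.33-fold for *Ctsz* and 1.32-fold for *Ctss*, but 0.968-fold for *Ctsf*.

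The mean of the standardized log2 CPM of the 10 genes gave a cathepsin profile over libraries, which was set beside 11 library measures with permutation p-values adjusted over them. The TMM scaling factor (0.954 in 388_5 to 1.022 in 388_2) had r = -0.93 with it (Spearman rho -0.96, permutation adjusted p = 0.00264), and r = -0.85 without the 2 farthest libraries. Since CPM is divided by that factor, the pairs were also computed without it, a setting added after seeing the values: 25 of 45 pairs then passed, the median of the 28 pairs was 0.78, and the profile without TMM had r = -0.83 with the factor (permutation p = 0.00353). The share of mitochondrial counts, 0.129% to 0.180% and highest in 388_4 and 388_5, had r = 0.62 (permutation adjusted p = 0.157, r = 0.70 without these 2 libraries), and summed oligodendrocyte markers had r = 0.65 (permutation adjusted p = 0.157, r = 0.63 without the 2 farthest libraries). Summed microglial markers had r = 0.66 (Spearman rho 0.41, permutation adjusted p = 0.157), which turned to -0.33 without 388_5 and 400_1. Total counts had r = 0.16 and summed neutrophil markers r = -0.05, both with a permutation adjusted p of 0.990. The part of these measures in the joint movement was not tested.

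The 5 genes most like the cathepsin profile are named here. *Gm2a*, the GM2 activator, a cofactor of ganglioside breakdown, had r = 0.99 over the 10 libraries, the lysosomal membrane proteins *Lamp1* and *Lamp2* had 0.97 and 0.96, *Glb1*, the β-galactosidase held in a complex by cathepsin A, had 0.95, and *Rpn2*, a subunit of the oligosaccharyltransferase of the endoplasmic reticulum, had 0.95. These 5 were the first 5 of 14471 other genes, so their r is a description of how they were found. An r of at least 0.8 was reached by 159 of these genes (1.1%), and by 60 of the 669 genes (8.97%) whose mean CPM was at least that of *Ctso*. Among the lists of pathway genes, 8 of 30 other lysosomal hydrolases reached it, 2 of 17 genes of activation and trafficking (*Grn* and *Scarb2*), 1 of 6 other lysosomal peptidases (*Tpp1*), 1 of 4 partners and substrates (*Glb1*), and 0 of 6 inhibitors, 0 of 13 lysosomal regulators and 0 of 2 other cathepsins. The cathepsins themselves, which enter the profile, ran from 0.83 (*Ctss*) to 0.95 (*Ctsl*) in 8 genes, with 0.44 for *Ctso* and -0.09 for *Ctsf*.

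**Figure D5:**
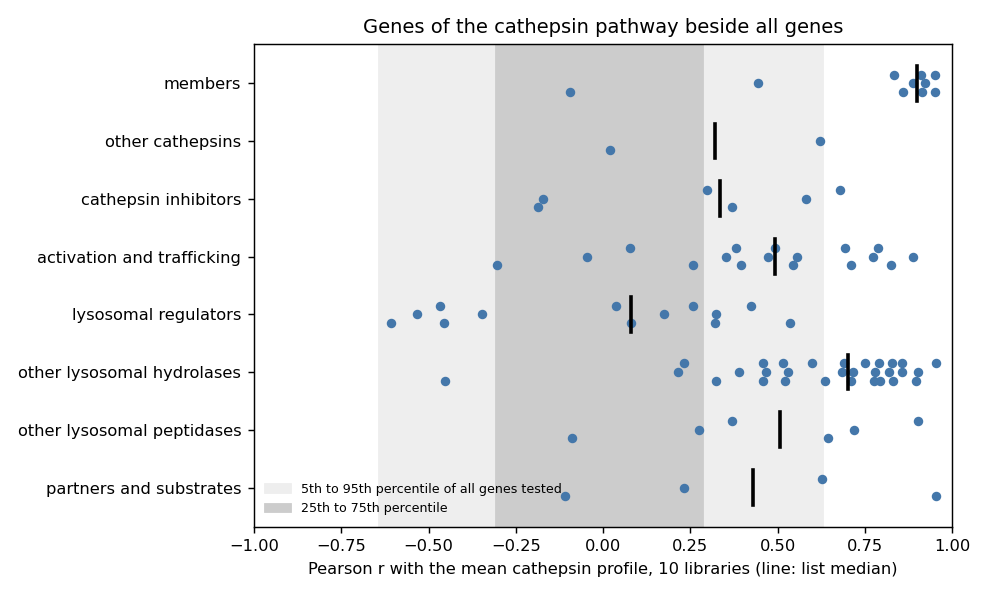
Pearson r with the mean cathepsin profile over 10 libraries (horizontal axis) for the tested genes of each list, with black lines at list medians and grey bands for all other genes tested. The lysosomal hydrolases have a median of 0.70 and the regulators 0.08, while the median lies at -0.01 over all other genes and at 0.33 over those with a mean CPM at least that of *Ctso*.

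Other cathepsin genes were low or not counted in these cells. Of 13 further cathepsin genes, 8 were at 0 counts in every library, which allows up to 0.0774 to 0.0928 CPM (3 counts) per library and includes *Ctsg*, the neutrophil granule protease. *Ctsk*, the collagenase of osteoclasts, was counted 0 to 9 times and was not tested. *Ctse*, an aspartic protease of endosomes, was tested and averaged 14.4 ± 5.0 CPM in PBS and 15.8 ± 2.8 CPM in GA libraries (SD, n = 5 each), and *Ctsw*, typical of cytotoxic lymphocytes, averaged 2.83 ± 0.81 and 2.54 ± 1.06 CPM (SD, n = 5 each). Neither passed the edgeR test (adjusted p = 0.957 and 0.970).

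The rest of the pathway also gave 0 edgeR calls at an adjusted p under 0.05. Of 15 inhibitor genes 6 were tested, and the unadjusted p was under 0.05 for 2. *Cst3*, encoding the secreted cystatin C, had 27281 ± 3404 CPM with PBS and 25186 ± 2033 CPM with GA (SD, n = 5 each; log2 fold change -0.12, edgeR adjusted p = 0.898), and its log2 fold change was -0.06 without PBS library 388_4 and -0.07 without 388_5. *Cst7*, encoding cystatin F, which acts on cathepsin C in the lysosome and is known from microglia near plaques, had 275 ± 49 CPM with PBS and 341 ± 64 CPM with GA (SD, n = 5 each; log2 fold change 0.31, edgeR unadjusted p = 0.0393, adjusted p = 0.854). *Serpinb1a*, an inhibitor of neutrophil serine proteases including cathepsin G, had 1.63 ± 0.82 and 0.447 ± 0.420 CPM (SD, n = 5 each; log2 fold change -1.86, edgeR unadjusted p = 0.0271, adjusted p = 0.854). Summed neutrophil markers were 259 ± 163 CPM in the PBS and 69.1 ± 66.8 CPM in the GA libraries (SD, n = 5 each), and their part in the level of *Serpinb1a* was not tested.

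Among the 17 genes of activation and trafficking, all tested, 14 log2 fold changes were above 0 and 3 below, with a median of 0.06. Over all genes tested, 7250 were above 0 and 7231 below, and the 17 genes as a set were not tested. *Lgmn*, the asparaginyl endopeptidase that cleaves procathepsins, had 3736 ± 437 CPM with PBS and 4103 ± 183 CPM with GA (SD, n = 5 each; log2 fold change 0.14, edgeR adjusted p = 0.895), and *Psap*, the precursor of the saposins and a carrier of procathepsin D, had 3689 ± 587 and 4091 ± 545 CPM (SD, n = 5 each; log2 fold change 0.15, edgeR adjusted p = 0.904). Without PBS library 388_5 the log2 fold changes of *Lgmn* and *Psap* were 0.20 (edgeR unadjusted p = 0.0076) and 0.26 (unadjusted p = 0.00767), both with an adjusted p of 0.561, and without 388_4 that of *Lgmn* was 0.08. The sorting receptor *Sorl1* had an unadjusted p of 0.0221 (log2 fold change 0.30, edgeR adjusted p = 0.848), with its 5 GA libraries led by 394_2, and its log2 fold change was 0.15 without that library. Of 13 lysosomal regulators 7 were above 0 and 6 below, with a median of 0.00. *Flcn*, a regulator of nutrient sensing at the lysosome, and *Rptor*, a subunit of mTORC1, had log2 fold changes of 0.02 and 0.06 (edgeR adjusted p = 0.981 and 0.950), and *Mitf*, a transcription factor of the TFEB family, had 19.6 ± 2.8 CPM with PBS and 15.8 ± 1.7 CPM with GA (SD, n = 5 each; log2 fold change -0.31, edgeR unadjusted p = 0.0205, adjusted p = 0.847).

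The 30 other hydrolases had a median log2 fold change of 0.02, with 18 above 0 and 12 below. *Man2b1*, the lysosomal α-mannosidase, had 1910.0 ± 213 CPM with PBS and 1941 ± 68 CPM with GA (SD, n = 5 each; edgeR adjusted p = 0.978), and *Gusb*, the β-glucuronidase, had a log2 fold change of 0.16 (edgeR unadjusted p = 0.0324, adjusted p = 0.854). Of the 6 other lysosomal peptidases 3 were above 0 and 3 below, with a median of 0.00: *Tpp1*, the tripeptidyl peptidase, and *Scpep1*, a serine carboxypeptidase, had log2 fold changes of 0.01 and -0.03 (edgeR adjusted p = 0.984 and 0.978), while *Dpp7*, a dipeptidyl peptidase (0.21), and *Napsa*, an aspartic protease at 1.49 CPM with PBS (-1.24), had edgeR unadjusted p-values of 0.0350 and 0.0284 and an adjusted p of 0.854. Of the 8 partners and substrates 4 were tested, with a median of 0.00. *Cd74*, the invariant chain that cathepsin S trims, had 701 ± 273 CPM with PBS and 621 ± 130 CPM with GA (SD, n = 5 each; edgeR adjusted p = 0.950), and *App*, the mouse amyloid precursor gene, had 390.2 ± 34.2 and 394 ± 35 CPM (SD, n = 5 each; edgeR adjusted p = 0.990).

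Within the GA group, the libraries of the 2 title prefixes could be compared, without knowing what the prefix stands for. Between prefix 400 (3 libraries) and prefix 394 (2 libraries), 0 of the 10 cathepsin genes passed edgeR's test with or without adjustment, against 5.48% of all genes unadjusted and 0.0138% (2 genes) adjusted. Log2 differences ran from -0.03 (*Ctsf*) to 0.19 (*Ctsl*, 735 against 839 CPM, edgeR unadjusted p = 0.179). Among the inhibitor and trafficking genes named above, *Cst7* averaged 279 CPM with prefix 394, near the PBS mean, and 383 CPM with prefix 400 (log2 difference 0.46, edgeR unadjusted p = 0.0171, adjusted p = 0.7099), and *Sorl1* averaged 163 and 124 CPM (log2 difference -0.39, edgeR unadjusted p = 0.0119, adjusted p = 0.659). The PBS group holds 1 prefix, so that no such split exists there. With the GA libraries of prefix 394 alone set against PBS, 4 of the 10 log2 fold changes were above 0, and with those of prefix 400 alone 9 were, in both cases with 0 genes called.

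The libraries held 32332185 to 38764643 counts in all, and a single cathepsin gene rested on 5568 to 458278 counts per library. Summed markers of microglia were 59415 ± 4116 CPM with PBS and 59112 ± 2073 CPM with GA (SD, n = 5 each), with *P2ry12* at 5570 to 7351 CPM. Marker sums of other cells were far lower, at 120.1 and 105 CPM for 7 genes of border-associated macrophages, 57.3 and 37.6 CPM for 7 of monocytes, 278 and 294 CPM for 6 of astrocytes, 194 and 199 CPM for 6 of oligodendrocytes, 68.8 and 69.6 CPM for 5 of endothelial cells, and 1.38 and 0.782 CPM for 7 of neurons (PBS and GA means). The 10 markers of T and NK cells summed to under 1 CPM in every library, and the 5 of B cells to 595 and 629 CPM.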

How the data were processed

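The cathepsin genes and the gene lists were chosen with earlier results of these data known. Reads (single-end) came from SMARTer pre-amplified, NexteraXT-tagged cDNA, which does not mark strand. The submitters' processing notes name bcl2fastq 2.19.0, fastp 0.20.0, STAR 2.7.0f, featureCounts of Subread 1.6.4, DESeq2 and GRCm38.p6; the annotation release and counting options are not given in the sources used here. The authors deposited raw counts per gene, without normalization, and 0 columns lacked a sample. Groups came from the treatment label.

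Genes were filtered with filterByExpr (minimum count 10), scaled by TMM and tested with edgeR 4.0.16 (quasi-likelihood, no covariate, Benjamini-Hochberg over 14481 genes, threshold 0.05) in R 4.3.3; single values used exact permutation of log2(CPM + 0.1) in Python 3.11.15 (numpy 2.4.6, scipy 1.17.1). All members were named, as were each list's 2 genes with the highest mean CPM, list genes with an unadjusted p under 0.05 and the 5 genes most like the members' profile; an item that this rule names is not reported here. Alternatives were DESeq2 1.42.0, its size factors, limma-voom (limma 3.58.1), robust fits, other filters, a pseudocount of 1, longest-transcript lengths, each library left out, each prefix alone and a replicate block. Scripts were tested on simulated data. With a count of 0, up to 3 counts were allowed. Since reads were amplified and carry no molecular identifiers, intervals and floors cover counting error only.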

Additional observations from a re-analysis of the deposited data

Results flagged for a closer look

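Of 72 groups of 5 values that were tested for a library standing apart from the rest by Dixon's ratio (95% critical value 0.71), 6 were marked, where chance marks about 1 in 20, and none was a group of a cathepsin gene. *Psap* had 4735 CPM in PBS library 388_5 and *Rpn2* had 669 CPM in the same library, each the highest of its PBS group, as were 9 of the 10 cathepsin genes there. *Serpinb1a* had 0.179 CPM in PBS library 388_2, the lowest of its group. Among GA libraries, *Sorl1* stood apart with 195 CPM in 394_2, *App* was low with 332 CPM in 394_1, and *Man2b1* was low with 1821 CPM in 400_3.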

How the results depend on the processing

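Each cathepsin gene had at least 5568 counts per library, but amplified reads do not give the number of molecules sampled, so that depth and the spread between libraries were not separated. The number of cathepsin genes called stayed at 0 in each alternative fit by edgeR, DESeq2 and limma-voom, and the lowest adjusted p-value of the 10 genes over these fits was 0.627 (*Ctsl* without 388_5). Log2 fold changes turned sign for *Ctss* with no filter (0.0049), limma-voom (0.0034) and prefix 400 alone (0.053). With prefix 394 alone they turned for *Ctsa* (-0.012), *Ctsb* (-0.013), *Ctsl* (-0.017), *Ctsz* (-0.013), *Flcn* (-0.030) and *App* (-0.074), and with prefix 400 alone for *Ctsw* (0.090), *Scpep1* (0.0053) and *Cd74* (0.023). The cause was not tested.

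With single libraries left out, ranges crossed 0 for *Ctsa* (-0.021 to 0.045), *Ctsh* (-0.0047 to 0.099), *Ctso* (-0.030 to 0.13), *Ctss* (-0.047 to 0.061), *Ctsz* (-0.0078 to 0.10), *Man2b1* (-0.0090 to 0.096), *Tpp1* (-0.0097 to 0.052), *App* (-0.020 to 0.069), *Flcn* (-0.015 to 0.051), *Scpep1* (-0.091 to 0.053), *Cd74* (-0.28 to 0.075) and *Ctsw* (-0.42 to 0.0041). Over the same exclusions, 0 to 2 genes passed the exact permutation test, and 14 to 30 pairs passed; without both 388_1 and 388_5, 2 pairs passed. With PBS or GA libraries alone 0 steps of the level order passed, since 5 libraries cannot give an exact p below 0.0625.

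Title numbers recur across groups but do not pair the samples: deviations of same-numbered libraries correlated at -0.12 to 0.05 over 5 pairs, against -0.11 to 0.07 over 20 pairs with different numbers. Title numbers 4 and 5 occur only in the PBS group. A replicate block on the title number therefore took 388_4 and 388_5 out of the treatment estimate. The edgeR fit with this block set GA against 388_1, 388_2 and 388_3 alone and gave 0 calls. It gave an unadjusted p under 0.05 for 5 cathepsin genes (*Ctsb*, *Ctsd*, *Ctsl*, *Ctss* and *Ctsz*) and 6.79% of all genes. The log2 fold change was 0.15 for *Ctss*, 0.023 for *Cst3*, -0.070 for *Flcn*, 0.14 for *Scpep1* and 0.017 for *Cd74*, each of the opposite sign to the fit without a block. Blocking and the loss of 388_4 and 388_5 cannot be told apart in these values.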
